A study of Homo sapiens with 26 samples.

Results

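Diacylglycerol kinases (DGKs) are the enzymes that phosphorylate diacylglycerol to phosphatidic acid. Both lipids are signals: diacylglycerol, released from membrane phosphoinositides by phospholipase C, recruits protein kinase C, RasGRP, chimaerin and Munc13 proteins, and phosphatidic acid feeds back into phosphoinositide synthesis and engages targets of its own. The family is divided by domain structure into type I (DGKA, DGKB and DGKG, with calcium-binding EF hands), type II (DGKD, DGKH and DGKK, with a pleckstrin homology domain), type III (DGKE), type IV (DGKZ and DGKI, with a MARCKS-like stretch and ankyrin repeats) and type V (DGKQ). Here all 10 family genes were followed by symbol in the deposited count tables, 10 of 26485 genes. The family was chosen by the measured counts of DGKK, which fell with both hairpins in the cultured cells. The DGKK values in culture are therefore given as a description without a test, and the tests cover the other members in culture and all members in the xenografts.

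The libraries came from KELLY, an established human neuroblastoma line with MYCN amplification. In culture, 3 lines carrying a doxycycline-inducible lentiviral vector were used: F1HUTG (Empty Vector), abbreviated EV, and lines carrying the hairpins sh4 or shAMB, both directed against the transcriptional co-repressor RUNX1T1. Each line was given DMSO or Doxycycline (Dox) for 72 hours with 3 libraries a group. The 8 xenograft libraries came from KELLY tumours carried by mice, 4 labelled Control, WT, on Control Food and 4 labelled RUNX1T1 KO on Doxycycline Food. By the study's methods the tumours were subcutaneous in young female NOD SCID gamma mice, which lack mature lymphocytes, and were grown from hairpin-bearing cells, so the label KO stands for an induced hairpin and not a deleted gene. The study's text gives the hairpin based on an Ambion siRNA as the one used in tumours, while the tumour labels name no hairpin and no label ties that description to shAMB. No doxycycline-fed empty vector tumour was analysed here, and the hairpin and doxycycline cannot be told apart in the tumours. Nothing states that replicates came from separate cultures, so p-values in culture measure the spread between these libraries, which may be technical.

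Totals ranged from 35115915 to 54736733 expected counts in culture and from 47346063 to 62378060 in xenografts. RUNX1T1 itself was measured at 39.3 to 44.1 CPM (read counts scaled to library size, TMM-normalised) in EV DMSO and 36.5 to 38.6 in EV Dox, 33.3 to 35.0 in sh4 DMSO and 30.1 to 33.9 in sh4 Dox, 39.9 to 42.0 in shAMB DMSO and 41.3 to 44.1 in shAMB Dox, 30.0 to 43.1 in control tumours and 24.3 to 35.2 in KO tumours. None of the 4 comparisons of treated with untreated libraries passed for RUNX1T1 (edgeR adjusted p = 0.672 with the empty vector, 0.117 with sh4, 0.378 with shAMB and 0.229 for the tumours), so groups are named below as the libraries are labelled. RUNX1T1 was lower in sh4 DMSO than in EV DMSO (log2 difference -0.29, edgeR adjusted p = 0.0144), and its change with Dox was higher in shAMB than in EV (by 0.21, adjusted p = 0.0353). The values given here are of RNA and do not measure the protein. The study reports significantly lower RUNX1T1 levels after doxycycline in KELLY with both of its hairpins. By immunostaining it reports loss of RUNX1T1 in KELLY tumours at the earlier of its timepoints. The sympathetic neuroblastoma markers PHOX2A, HAND2, GATA3, ISL1, TH, DBH and MYCN each lay above 1 CPM in every library. The full list of 8 holds 1 marker not reported here. Its sum was 3225 to 3722 CPM in sh4 DMSO and 4536 to 5749 in sh4 Dox. In shAMB it was 3225 to 3301 and 7083 to 7794 CPM, and in tumours 3393 to 4139 and 6876 to 9194 CPM. In EV it overlapped, at 3260 to 3576 and 3536 to 3710 CPM. In each hairpin line 4 of 8 were called higher and 2 lower, against 40.9% (sh4) and 66.0% (shAMB) of all genes. In tumours 3 were called higher, against 41.1%. Markers of other cell types were low in the tumours and some moved with the groups. Summed human Schwann cell markers were 5.17 to 6.97 CPM in control and 2.60 to 3.16 CPM in KO tumours, and leukocyte markers 1.15 to 1.63 and 1.78 to 2.70 CPM, both without overlap. Of 3 Schwann cell markers tested in tumours, 1 was called higher and 1 lower, and none of 2 leukocyte markers was called, against 41.1% of all genes. Endothelial markers were 0.896 to 1.25 and 0.558 to 1.83 CPM and those of fibroblasts and pericytes 48.5 to 82.0 and 74.9 to 116 CPM, both overlapping, and red cell markers were at 0. In bulk RNA, fewer cells of a type and less RNA per cell cannot be told apart. Schwann cell and leukocyte markers were also counted in culture, which held KELLY lines alone. There the Schwann cell sum was 3.88 to 5.43 CPM. The leukocyte sum was 0.641 to 0.776 CPM in shAMB DMSO and 1.52 to 2.31 CPM in shAMB Dox. In sh4 it was 1.12 to 1.27 CPM with DMSO and 0.740 to 1.37 CPM with Dox. The tumour hosts were mice, and the source of these low counts was not tested.

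The sequences directly upstream of 2 start sites are shown, that of DGKK because it is the member on which the family was singled out, and that of DGKE because it is the member with the clearest difference between the hairpin lines. RUNX1T1 is known to be recruited through basic helix-loop-helix factors, which bind E-boxes (CANNTG, searched on both strands), so the 250 bases before each RefSeq start (GRCh38.p14) were searched for E-boxes and for GC boxes (GGGCGG or its reverse complement), which are in capitals. DGKK lies on the minus strand of the X chromosome, and its window is chrX:50470826-50471075. DGKE lies on the plus strand of chromosome 17, and its window is chr17:56833901-56834150. Neither window held an E-box, whereas 61.8% of 35116 RefSeq promoter windows of this length did. The GC box was found in both, and in 42.6% of all windows. A match is a description of letters and not a bound site. By ChIP-seq in KELLY the study found RUNX1T1 almost only in intergenic regions and seldom at promoters. A promoter window therefore cannot show whether RUNX1T1 acts at these genes.
DGKK: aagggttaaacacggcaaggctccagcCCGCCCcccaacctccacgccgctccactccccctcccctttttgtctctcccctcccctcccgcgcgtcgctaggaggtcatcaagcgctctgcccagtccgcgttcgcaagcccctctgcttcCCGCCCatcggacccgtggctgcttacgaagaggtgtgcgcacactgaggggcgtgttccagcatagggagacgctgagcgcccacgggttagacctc
DGKE: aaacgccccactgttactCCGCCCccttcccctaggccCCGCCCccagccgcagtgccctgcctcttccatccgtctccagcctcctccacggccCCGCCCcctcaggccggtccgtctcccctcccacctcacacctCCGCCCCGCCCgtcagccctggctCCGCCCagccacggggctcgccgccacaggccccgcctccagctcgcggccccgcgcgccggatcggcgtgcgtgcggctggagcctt

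KELLY cells expressed most of the family. Per kilobase of deposited gene length, the order in EV DMSO was DGKD at 6.70 ± 0.785 CPM per kb (SD, n = 3), DGKB at 5.63 ± 0.440, DGKI at 5.57 ± 0.410 and DGKZ at 4.81 ± 1.20, then DGKE at 2.36 ± 0.134, DGKK at 2.27 ± 0.153, DGKH at 1.41 ± 0.227 and DGKA at 0.361 ± 0.00678. DGKG at 0.0339 ± 0.0139 and DGKQ at 0.0147 ± 0.00852 CPM per kb were close to the limit of detection. Within this order each neighbour among DGKD, DGKB, DGKI and DGKZ differed from the next by less than the sum of their SDs, and the same held for DGKE and DGKK and for DGKG and DGKQ. In control tumours, which were normalised in a separate table and are not tested against culture, DGKI was highest at 12.5 ± 1.50 CPM per kb (SD, n = 4) and DGKK stood at 0.663 ± 0.117.

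DGKK, a brain-enriched member whose messenger RNA is a known target of the fragile X protein FMRP, was nearly constant without a hairpin and low with either one. In EV it was 18.1, 16.5 and 15.9 CPM with DMSO and 16.3, 16.1 and 16.3 CPM with Dox. In sh4 it was 16.1, 15.9 and 18.3 CPM with DMSO and 5.46, 4.94 and 4.96 CPM with Dox. In shAMB it was 17.9, 17.2 and 17.0 CPM with DMSO and 5.82, 5.79 and 5.84 CPM with Dox. All 6 induced hairpin libraries lay below the 12 others, and the levels reached with sh4 and shAMB were close. The fitted log2 fold changes were -1.71 ± 0.0746 (SE, n = 3 a group) in sh4 and -1.58 ± 0.0740 in shAMB, or 3.27-fold and 2.99-fold lower, against -0.05 ± 0.0711 in EV. The 2 hairpin effects differed by -0.13 on the log2 scale, with a 95% interval of -0.35 to 0.09. These contrasts chose the gene, so no test is attached to them. Before induction the DMSO libraries of the 2 hairpin lines differed from those of EV by -0.01 (sh4) and 0.05 (shAMB) on the log2 scale.

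The rule that chose the gene did not use the tumour libraries, so DGKK was tested there. DGKK was 6.08, 4.90, 3.99 and 4.67 CPM in control tumours and 1.99, 2.97, 2.16 and 2.92 CPM in KO tumours. By CPM no KO tumour reached the lowest control tumour. By deposited TPM the groups overlapped, with 0.270 in KO replicate 2 and 0.220 in control replicate 2. On log2(TPM + 1) values the difference was -0.18 (limma adjusted p = 0.0420). The log2 fold change was -0.97 ± 0.203 (SE, n = 4 a group), or 1.95-fold lower (edgeR quasi-likelihood test, adjusted p = 0.00320), and it stayed between -1.06 and -0.85 when any 1 tumour was left out, with an adjusted p of at most 0.0126. The sympathetic, Schwann cell and leukocyte marker sums given above also separated the tumour groups, and their part in this and in the other tumour differences was not tested. The tumour difference was the smallest of the 3 hairpin-associated differences in DGKK. It came from the lowest starting level, 4.91 ± 0.870 CPM in control tumours against 16.8 ± 1.13 CPM in EV DMSO.

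**Figure D1:**
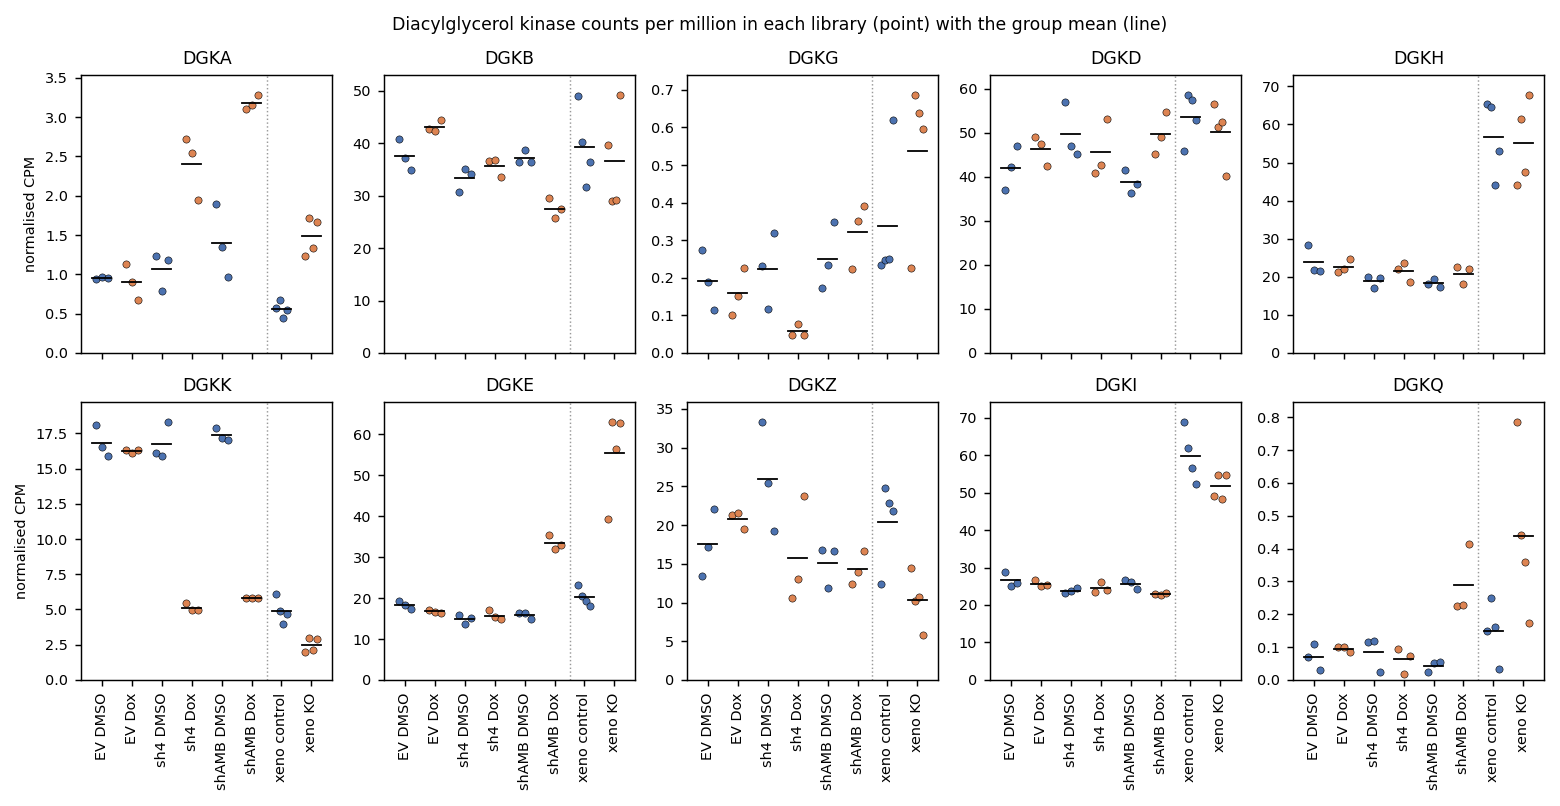
Normalised CPM (y axis, linear from 0, a separate scale for each gene) of the 10 diacylglycerol kinase genes in each of 26 libraries, blue for DMSO or control and orange for doxycycline or KO, with a line at the group mean; the dotted line separates culture from xenografts, which were normalised separately. DGKK lies at 4.94 to 5.84 CPM in the induced hairpin libraries and at 15.9 to 18.3 CPM in the other culture libraries. DGKA rises with both hairpins. DGKE rises in shAMB and in KO tumours, while its sh4 DMSO and sh4 Dox points overlap.

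Among the other members the test was passed as follows. In EV, edgeR called none of the 8 members tested besides DGKK, against 0.0939% of all 14905 genes, and DESeq2 also called none, against 0.134%. Of these members, 1, DGKB, was under 0.05 before adjustment in edgeR, against 879 of all 14905 genes. Its log2 fold change was 0.20 ± 0.0700 (edgeR adjusted p = 0.672). In sh4, 3 of 8 were called, against 40.9% of all genes. In shAMB, 5 of 8 were called, against 66.0% of all genes. In the tumours, 5 of 10 were called, against 41.1% of 15960 genes. The shares of members called were thus near the shares of all genes called, and the family as a whole did not stand out by its number of calls. DGKQ did not pass the filter on low counts in culture and is described below from its counts and without the filter. DGKH passed in none of these comparisons.

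Of the 8 members, 1 responded more with sh4 than with EV (against 32.6% of all genes called for the difference between the 2 effects), 3 responded differently with shAMB than with EV (45.5%), and 5 differed between sh4 and shAMB (60.9%). Both differences from EV share the same EV libraries. Between uninduced lines, none of the 8 members differed between sh4 DMSO and EV DMSO (1.12% of all genes called) or between shAMB DMSO and EV DMSO (1.52%). At an unadjusted edgeR p under 0.05 there were 5 and 3 members respectively, against 4180 and 1639 of all 14905 genes. Between sh4 DMSO and EV DMSO, DESeq2 called 1 member, DGKE, with a log2 difference of -0.32 (adjusted p = 0.0200), against 2.79% of all genes. Between shAMB DMSO and EV DMSO it called 0, against 1.97%.

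**Figure D2:**
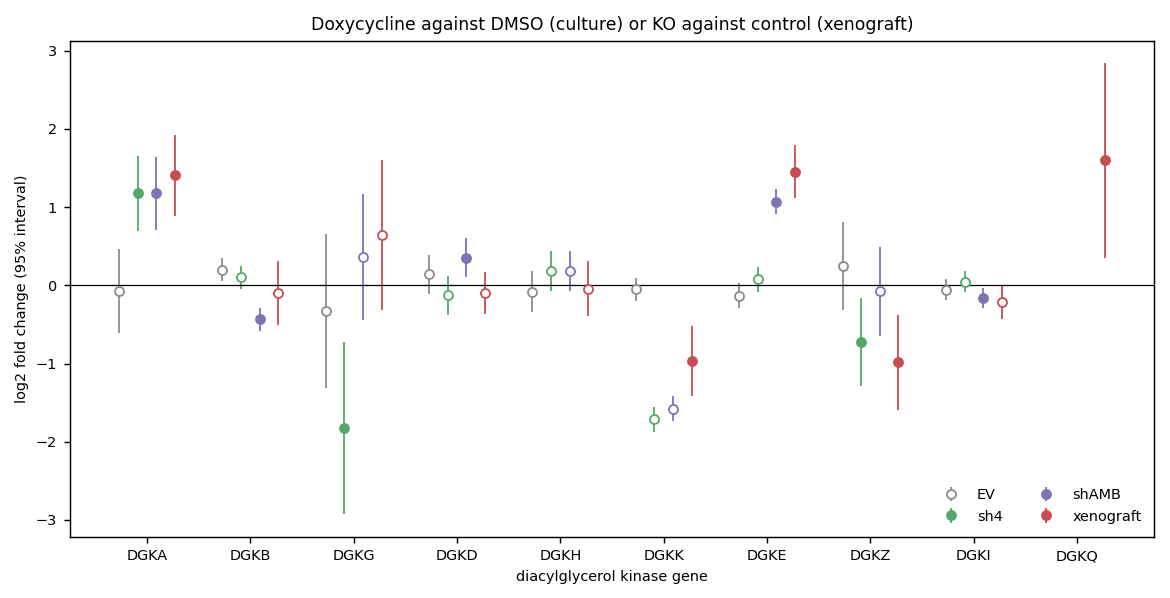
Log2 fold change (y axis) with its 95% interval for each diacylglycerol kinase gene (x axis), for Dox against DMSO in EV (grey), sh4 (green) and shAMB (purple) and for KO against control in xenografts (red); filled points passed an adjusted p of 0.05 and open points did not or, for DGKK in culture, were not tested. DGKA is near 1.2 with both hairpins and 1.41 in tumours, whereas DGKE is 0.08 in sh4, 1.07 in shAMB and 1.45 in tumours.

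Among the type I kinases, DGKA, best known for restraining diacylglycerol signalling in T cells, rose where DGKK was low. DGKA was 1.23, 0.787 and 1.18 CPM in sh4 DMSO and 2.72, 2.55 and 1.94 CPM in sh4 Dox. It was 1.90, 1.35 and 0.963 CPM in shAMB DMSO and 3.11, 3.16 and 3.28 CPM in shAMB Dox. The treated and untreated libraries of each hairpin line did not overlap. DGKA rose by a log2 fold change of 1.18 ± 0.225 (SE) in sh4 (edgeR adjusted p = 0.000572) and of 1.18 ± 0.220 in shAMB (adjusted p = 0.000235). The difference between the 2 hairpins was 0.00 with a 95% interval of -0.55 to 0.56. In EV it was 0.935, 0.971 and 0.951 CPM with DMSO and 1.13, 0.905 and 0.674 CPM with Dox, and the hairpin effects exceeded the EV effect by 1.25 in both lines (edgeR adjusted p = 0.0108 for sh4 and 0.00667 for shAMB). In tumours DGKA was 0.576, 0.677, 0.448 and 0.552 CPM in controls and 1.24, 1.72, 1.34 and 1.67 CPM in KO. This was a rise of 1.41 ± 0.235 on the log2 scale (edgeR adjusted p = 0.000838), with no overlap. DGKA was the member called in the same direction in both hairpin lines and in the tumours. Its level stayed low throughout, at most 1.21 ± 0.0318 CPM per kb in shAMB Dox.

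DGKB, a neuronal type I kinase abundant in the striatum, was among the most abundant members and fell with shAMB. It was 36.4, 38.8 and 36.5 CPM in shAMB DMSO and 29.6, 25.7 and 27.4 CPM in shAMB Dox. All 3 treated libraries lay below all 3 untreated ones, with a log2 fold change of -0.43 ± 0.0704 (edgeR adjusted p = 6.1e-05). In sh4 it was 30.7, 35.1 and 34.1 CPM with DMSO and 36.7, 36.9 and 33.6 CPM with Dox. Here the groups overlapped, and the value was 0.10 ± 0.0699 (adjusted p = 0.263). With GC and length trends removed it was -0.08 (edgeR adjusted p = 0.0990), and EV was 0.29 (0.00198). The sh4 effect then differed from that of EV by -0.37 (edgeR adjusted p = 4.8e-05). Limma on log2(TPM + 1) instead called DGKB higher in sh4 (0.26, adjusted p = 0.0110), and gave 0.11 for sh4 minus EV (0.448). The sh4 and shAMB effects differed by 0.54 ± 0.0992 (adjusted p = 0.000287), and the shAMB effect differed from the EV effect by -0.63 ± 0.0993 (adjusted p = 8.9e-05). In tumours DGKB was 31.6 to 49.0 CPM in controls and 29.0 to 49.2 CPM in KO, overlapping over almost the whole range.

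DGKG was near the floor of detection. Its counts were 12, 6 and 13 in sh4 DMSO and 2, 4 and 2 in sh4 Dox, without overlap, and its log2 fold change was -1.82 ± 0.518 (edgeR adjusted p = 0.0102). In shAMB the counts were 7, 9 and 13 with DMSO and 10, 20 and 17 with Dox, overlapping, and the 2 hairpin effects differed by -2.19 ± 0.645 (adjusted p = 0.00843). The difference of the sh4 effect from the EV effect, -1.50 ± 0.709, did not pass (adjusted p = 0.117). On log2(TPM + 1) values, a scale on which a gene this low hardly moves, DGKG in sh4 was -0.07 (limma adjusted p = 0.145).

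Among the type II kinases other than DGKK, DGKD was the largest member by length-scaled level in culture and moved little. It was 41.7, 36.3 and 38.5 CPM in shAMB DMSO and 45.3, 49.1 and 54.8 CPM in shAMB Dox. The groups did not overlap, and the log2 fold change was 0.36 ± 0.116 (edgeR adjusted p = 0.0135). It did not pass without shAMB DMSO replicate 2 (0.31, adjusted p = 0.0569) or without shAMB Dox replicate 3 (0.28, adjusted p = 0.0689), and it turned to -0.08 (adjusted p = 0.102) once GC content and length trends were removed. In sh4 DGKD was 45.3 to 57.1 CPM with DMSO and 41.0 to 53.1 CPM with Dox, overlapping. The sh4 and shAMB effects differed by -0.48 ± 0.164 (adjusted p = 0.0185), a call lost without sh4 DMSO replicate 1 (-0.36, adjusted p = 0.0610) or without shAMB Dox replicate 3 (-0.41, adjusted p = 0.0535), and at -0.01 (adjusted p = 0.929) with the GC and length trends removed. In tumours it was 45.8 to 58.6 CPM in controls and 40.3 to 56.5 CPM in KO.

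DGKH, reported in genetic studies of bipolar disorder, was not called in any comparison as fitted. In culture it ranged from 17.1 to 28.4 CPM over all 18 libraries, the highest being 1 EV DMSO library. In tumours it was 65.4, 64.7, 44.2 and 53.0 CPM in controls and 44.2, 61.5, 47.6 and 67.7 CPM in KO, with both groups spanning the same range. Before induction it was lower than in EV DMSO by -0.34 in sh4 and by -0.38 in shAMB on the log2 scale (edgeR adjusted p = 0.155 and 0.174). With GC and length trends removed it passed in shAMB DMSO against EV DMSO (-0.28, adjusted p = 0.00472) and in tumours (-0.31, adjusted p = 0.00376), and limma on log2(TPM + 1) called it in shAMB (0.26, adjusted p = 0.0351).

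DGKE, the type III kinase, prefers arachidonoyl diacylglycerol, the species released from phosphoinositides, and separated the 2 hairpins most clearly. In shAMB it was 16.3, 16.4 and 15.0 CPM with DMSO and 35.5, 31.9 and 32.9 CPM with Dox, without overlap. This was a rise of 1.07 ± 0.0737 on the log2 scale, or 2.10-fold (edgeR adjusted p = 5.4e-09). In sh4 it was 15.9, 13.7 and 15.1 CPM with DMSO and 17.0, 15.3 and 14.8 CPM with Dox. The sh4 groups overlapped, and the value was 0.08 ± 0.0738 (adjusted p = 0.427) with a 95% interval of -0.08 to 0.23. On log2(TPM + 1) values DGKE passed in sh4 (0.20, limma adjusted p = 0.0362), where 48.2% of all genes were called. It also passed there for sh4 minus EV (0.34, limma adjusted p = 0.0174), where 41.9% were called. With GC and length trends removed, the sh4 value was -0.12 (edgeR adjusted p = 0.104). The 2 hairpin effects differed by -0.99 ± 0.104 (edgeR adjusted p = 1.0e-06), and the shAMB effect exceeded that of EV by 1.20 ± 0.104 (adjusted p = 2.1e-07). In tumours DGKE was 23.2, 20.4, 19.2 and 18.1 CPM in controls and 39.4, 63.0, 56.4 and 62.8 CPM in KO. All 4 KO tumours lay above all 4 controls, KO replicate 1 being the lowest of them, and the rise was 1.45 ± 0.152, or 2.74-fold (edgeR adjusted p = 5.3e-05).

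Of the type IV kinases, DGKZ, which is found in the nucleus as well as at the membrane, had the widest spread between replicates among the abundant members. It was 33.3, 25.4 and 19.3 CPM in sh4 DMSO and 10.6, 13.0 and 23.8 CPM in sh4 Dox. Replicate 3 of sh4 Dox lay within the untreated range, and the groups overlapped. The log2 fold change of -0.72 ± 0.264 was called (edgeR adjusted p = 0.0392) but did not pass without sh4 DMSO replicate 1 (-0.52, adjusted p = 0.161), sh4 DMSO replicate 2 (-0.74, adjusted p = 0.0731), sh4 Dox replicate 1 (-0.51, adjusted p = 0.164) or sh4 Dox replicate 2 (-0.60, adjusted p = 0.145), and was -1.14 without sh4 Dox replicate 3. The sh4 effect differed from that of EV by -0.97 ± 0.375, which did not pass (adjusted p = 0.0596) but did with DESeq2 (-0.96, 0.0233), with the replicate number as a block (-1.04, 0.0478), without a filter on low counts (0.0481) and with GC and length trends removed (-0.43, 0.000252). In shAMB DGKZ was 16.8, 11.9 and 16.7 CPM with DMSO and 12.4, 14.0 and 16.7 CPM with Dox, overlapping (-0.08 ± 0.267, adjusted p = 0.810). The 2 hairpin effects differed by -0.64 ± 0.375 (adjusted p = 0.148), and by -1.06 (adjusted p = 0.00600) without sh4 Dox replicate 3. In tumours it was 12.4, 24.8, 22.8 and 21.8 CPM in controls and 14.5, 10.2, 10.7 and 5.81 CPM in KO. Control replicate 1 lay below the highest KO tumour, and the log2 fold change was -0.99 ± 0.273 (edgeR adjusted p = 0.0142).

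Within most groups the libraries fell in the same order by DGKZ level and by relative abundance of GC-rich genes. Across groups, DGKZ rose broadly with that abundance in the EV libraries and in the DMSO libraries of sh4 and shAMB. In the sh4 Dox, shAMB Dox and KO tumour libraries DGKZ was lower than in untreated or control libraries of a like abundance. DGKZ has a GC content of 63.4%, against a median of 48.7% over the genes tested. An index was taken for each library as the median log2 deviation of the 20% of genes richest in GC minus that of the 20% poorest, a measure chosen after the DGKZ values had been seen. In 6 of the 8 groups the index and DGKZ gave the same order of libraries. In sh4 DMSO the index was 0.69, 0.31 and -0.01 for replicates 1 to 3, where DGKZ was 33.3, 25.4 and 19.3 CPM. In sh4 Dox it was -0.51, -0.30 and 0.60, where DGKZ was 10.6, 13.0 and 23.8 CPM. In shAMB it was -0.37, -0.73 and -0.35 with DMSO and 0.09, 0.40 and 0.60 with Dox, so the treated libraries were the GC-richer ones while their DGKZ was no higher. With GC and length trends removed library by library, the DGKZ log2 fold changes were -0.01 in EV (edgeR adjusted p = 0.950), -0.45 in sh4 (2.2e-06), -0.93 in shAMB (1.2e-10) and -1.15 in the tumours (2.0e-06), and the difference between sh4 and shAMB turned from -0.64 to 0.49 (4.2e-05). In tumours KO replicate 1 had the highest index, 0.64, and a DGKZ level of 14.5 CPM, below 3 of the 4 controls. DGKK has a GC content of 46.9%, and its values under the same removal were -1.84 in sh4, -1.68 in shAMB and -1.11 in the tumours.

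**Figure D3:**
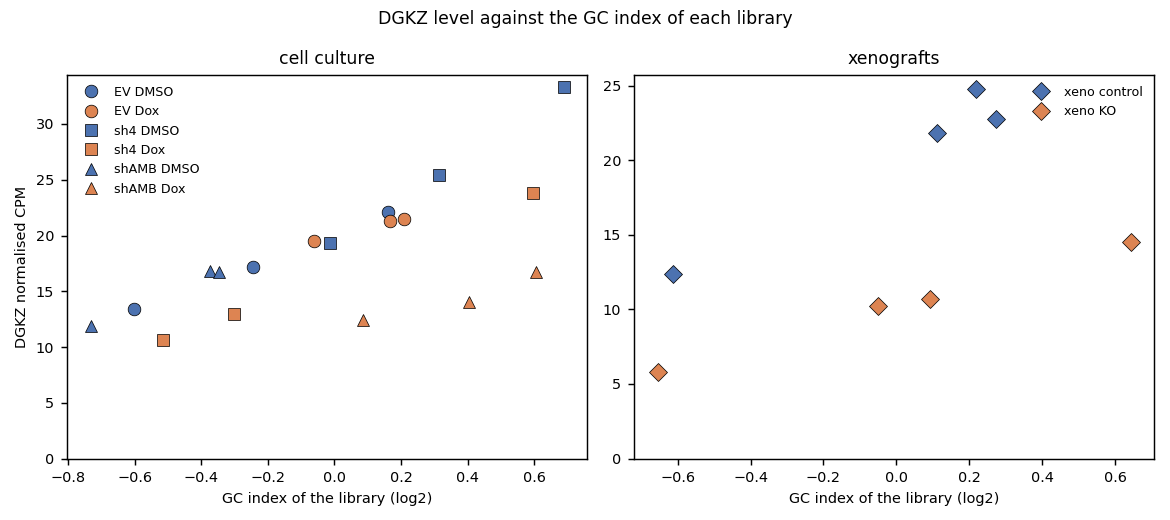
Normalised CPM of DGKZ (y axis, from 0) against the GC index of the library (x axis, log2 scale, higher where GC-rich genes were relatively more abundant) in the 18 culture libraries (left) and the 8 xenografts (right), 1 point a library. The EV, sh4 and shAMB DMSO points rise together from 11.9 CPM to 33.3 CPM with the index, and the 3 shAMB Dox points lie lower, at 12.4 to 16.7 CPM, than the untreated libraries of a like index.

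DGKI, a neuronal kinase closely related to DGKZ, changed little in culture. It was 26.6, 26.1 and 24.3 CPM in shAMB DMSO and 23.0, 22.7 and 23.2 CPM in shAMB Dox. The groups did not overlap, and the log2 fold change was -0.16 ± 0.0619 (edgeR adjusted p = 0.0304). The call was lost when any of 5 of the 6 libraries was left out, with adjusted p values of 0.106 without DMSO replicate 1, 0.0841 without DMSO replicate 2, 0.0572 without Dox replicate 1, 0.0776 without Dox replicate 2 and 0.0536 without Dox replicate 3. The difference between the sh4 and shAMB effects, 0.21 ± 0.0874, was at the threshold (adjusted p = 0.0499), and was lost without any of 8 of the 12 libraries (sh4 DMSO replicates 1 and 2, sh4 Dox replicate 2, shAMB DMSO replicates 1 and 2, and all 3 of shAMB Dox), with values of 0.16 to 0.21 there. It was also lost with the replicate block (adjusted p = 0.0632) and with GC and length trends removed (0.012, adjusted p = 0.897). In tumours DGKI was 68.8, 61.9, 56.5 and 52.2 CPM in controls and 49.1, 54.6, 48.3 and 54.6 CPM in KO, overlapping, with a value of -0.21 ± 0.101 (adjusted p = 0.118).

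DGKQ, the type V kinase, with 3 cysteine-rich domains, had few counts in any library. In culture its counts were 1, 2 and 2 in shAMB DMSO and 10, 13 and 18 in shAMB Dox. The summed counts, 5 and 41, gave a ratio of 7.05 after scaling to the totals, with an exact interval of 2.79 to 22.9 that covers counting error only. Without the filter on low counts DGKQ passed in shAMB (log2 fold change 2.61, edgeR adjusted p = 0.000914) and not in sh4 (-0.58, adjusted p = 0.539) or EV (0.45, adjusted p = 0.843). The sums were 8 with DMSO and 11 with Dox in EV (ratio 1.37, 0.501 to 3.92) and 13 and 8 in sh4 (ratio 0.681, 0.245 to 1.77). In tumours the counts were 7, 11, 9 and 2 in controls and 45, 25, 23 and 9 in KO, where KO replicate 4 lay within the control range, and the log2 fold change was 1.60 ± 0.564 (edgeR adjusted p = 0.0421). That call did not hold without control replicate 1 (1.62, adjusted p = 0.0756), 3 (1.66, 0.0755) or 4 (1.24, 0.0949), nor without KO replicate 1 (1.17, 0.111), 2 (1.60, 0.0812) or 3 (1.66, 0.0686).

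The level of the whole family was taken as the sum of its members per kilobase. The sum was 29.2 ± 0.904 CPM per kb (SD, n = 3) in EV DMSO and 31.0 ± 0.808 in EV Dox, 30.8 ± 2.50 and 27.0 ± 2.23 in sh4, 27.3 ± 1.14 and 28.4 ± 1.34 in shAMB, and 39.5 ± 2.47 and 38.6 ± 1.56 (n = 4) in control and KO tumours. In means it was thus lower with Dox in sh4 and higher with Dox in EV. DGKK made up 7.40% ± 1.09 of the sum in sh4 DMSO and 2.58% ± 0.332 in sh4 Dox. In shAMB it went from 8.58% ± 0.173 to 2.77% ± 0.117, and in tumours from 1.68% ± 0.262 to 0.875% ± 0.146, whereas in EV it was 7.80% ± 0.699 and 7.08% ± 0.210. DGKE made up more of the sum in shAMB, 7.50% ± 0.434 with DMSO and 15.2% ± 1.17 with Dox, and in tumours, 6.60% ± 0.564 in controls and 18.4% ± 3.36 in KO. In sh4 the DGKE share was 6.24% ± 0.428 and 7.55% ± 1.10. The DGKA share was 1.31% ± 0.283 and 3.41% ± 0.828 in sh4 and 1.93% ± 0.578 and 4.25% ± 0.108 in shAMB. These shares sum to the whole, so they are not independent, and no test was run on the sums or the shares.

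**Figure D4:**
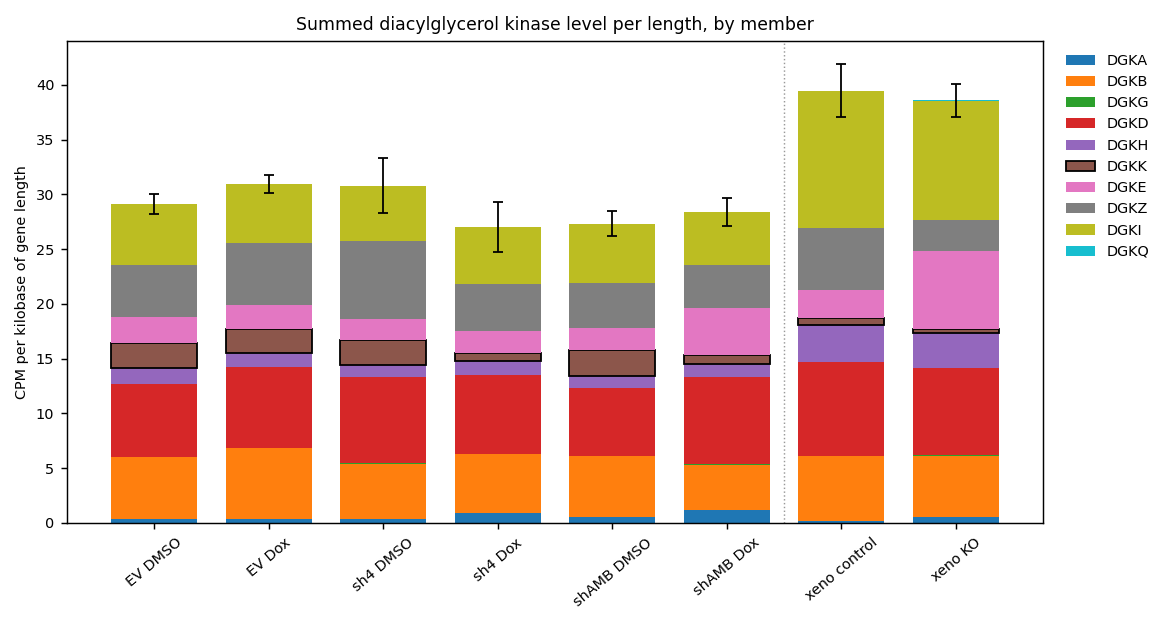
Summed level of the diacylglycerol kinase family (y axis, CPM per kilobase of deposited gene length, from 0) in each of the 8 groups, stacked by member, with DGKK outlined and error bars for the SD of the sum over 3 (culture) or 4 (xenograft) libraries; the dotted line separates 2 tables normalised separately. The sum stays between 27.0 and 31.0 in culture, while the DGKK band narrows in sh4 Dox and shAMB Dox and the DGKE band widens in shAMB Dox and KO tumours.

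Over the 18 culture libraries the genes whose log2 CPM tracked DGKK most closely, among 12708 candidates with a mean of at least 1 CPM, were B4GALT5 (Pearson r = 0.997), a lactosylceramide synthase, UBQLN1 (0.990), which delivers ubiquitinated proteins to the proteasome, DIXDC1 (0.986), a DIX domain protein of Wnt signalling, STARD7 (0.985), a phosphatidylcholine transfer protein, and the antisense transcript PTPRG-AS1 (0.984). These correlations are a description. They rest on 6 induced hairpin libraries that lie apart from the 12 others, and by rank correlation the same genes placed 37th, 44th, 162nd, 25th and 221st, with none of the 5 among the 5 highest. Their log2 fold changes ran from -0.61 (DIXDC1) to -1.04 (UBQLN1) in sh4 and from -0.70 (DIXDC1) to -1.20 (UBQLN1) in shAMB, each smaller in size than that of DGKK. In the tumours, which the ranking did not use, all 5 fell, by -0.71 (B4GALT5, edgeR adjusted p = 0.000121), -0.63 (UBQLN1, 0.000502), -0.72 (DIXDC1, 8.1e-05), -0.66 (STARD7, 0.000243) and -0.60 (PTPRG-AS1, 0.00518). Of all 15960 genes tested there, 3173 were called lower. The counting was not stated to use strand, so reads of PTPRG-AS1 and of its sense partner cannot be told apart. Of the other members, DGKA had the strongest correlation with DGKK, at r = -0.856.

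**Figure D5:**
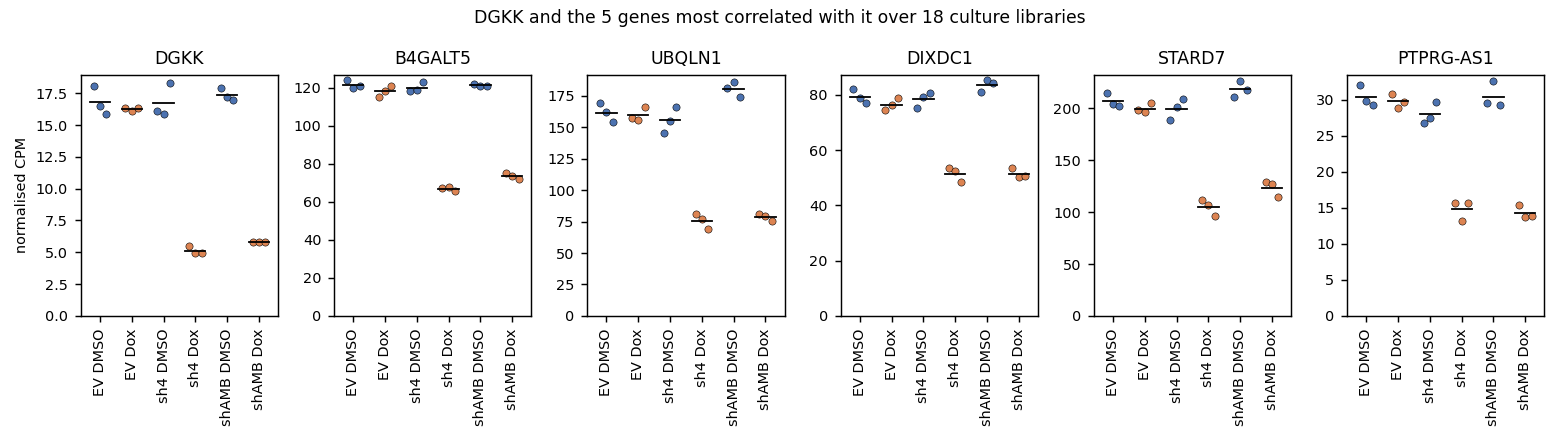
Normalised CPM (y axis, from 0, a separate scale for each gene) of DGKK and of the 5 genes with the highest Pearson correlation with it, in each of the 18 culture libraries (points, blue DMSO, orange Dox) with a line at the group mean. In each panel the sh4 Dox and shAMB Dox points lie below the 12 others.

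The rest of the diacylglycerol pathway was taken from 7 lists with 87 genes, of which 79 were tested in culture. In EV none was called. In sh4, 25 of 79 were called (31.6%, against 40.9% of all genes), 14 higher and 11 lower. In shAMB, 57 of 79 were called (72.2%, against 66.0%), 38 higher and 19 lower. In tumours, 40 of 78 were called (51.3%, against 41.1%), 20 in each direction. The enzymes that make diacylglycerol, the phospholipase C genes, had 3 higher and 4 lower of 15 in sh4 (median log2 fold change -0.25, against 0.00 for all genes) and 8 higher and 2 lower of 15 in shAMB (median 0.33, against 0.10). Genes of the lists named here and below were chosen for passing in the same direction in both hairpin lines and not in EV. Their adjusted p values in sh4 and shAMB passed by that choice and are no further test. The tumour values did not enter the choice. PLCL1, a catalytically inactive relative, rose in both (0.65, edgeR adjusted p = 0.000182, and 0.55, adjusted p = 0.000347) and was -0.29 in tumours (adjusted p = 0.166). PLCXD3 fell in both (-0.52, adjusted p = 0.00415, and -2.71, adjusted p = 2.1e-10), although in EV it was -0.68 (adjusted p = 0.0955), and was -0.15 in tumours (adjusted p = 0.760).

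For this list and those that follow, the shares of all genes called were 40.9% in sh4 and 66.0% in shAMB, and the medians of all genes 0.00 and 0.10. Named genes were again chosen on their values in culture, so only their tumour values test them anew. The proteins that bind diacylglycerol had 2 higher and 1 lower of 16 in sh4 and 11 higher and 3 lower of 16 in shAMB, with medians of 0.10 and 0.61. CHN2, a Rac-inactivating chimaerin, rose by 0.99 in sh4 (edgeR adjusted p = 9.4e-08), by 0.81 in shAMB (3.5e-07) and by 0.93 in tumours (0.00361). PRKCE, a protein kinase C that diacylglycerol activates without calcium, rose by 0.35 (1.1e-05), 0.92 (9.9e-11) and 0.34 (0.0112) in the same order. Of the phosphatases that turn phosphatidic acid back into diacylglycerol, 2 of 8 were higher and 2 lower in sh4 and 5 higher and 2 lower in shAMB, with medians of 0.05 and 0.28. PPAP2B, now named PLPP3, rose by 0.69 (edgeR adjusted p = 1.7e-05), 0.42 (0.000907) and 0.56 (0.0458).

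Phosphoinositide resynthesis genes had 1 higher and 4 lower of 14 in sh4 and 5 in each direction in shAMB, with medians of -0.05 and -0.04. PI4K2B, a phosphatidylinositol 4-kinase, fell by 0.52 (edgeR adjusted p = 6.1e-05) and by 0.23 (0.0174), and was -0.13 in tumours (0.269). PIP4K2B fell in all of them, by 0.18 (edgeR adjusted p = 0.00709), 0.37 (5.3e-06) and 0.51 (0.000376). In the inositol trisphosphate branch, 2 of 8 were higher and none lower in sh4, and 2 were higher and 2 lower in shAMB, with medians of 0.02 and 0.03. ITPR1, the inositol trisphosphate receptor, rose by 0.88 (edgeR adjusted p = 2.1e-09) and 1.19 (2.8e-11) with the hairpins in culture and fell by 0.43 (0.00156) in tumours. Other diacylglycerol and phosphatidic acid enzymes had 3 higher and none lower of 14 in sh4, and 5 in each direction in shAMB, with medians of -0.09 and 0.05. Of the 4 related lipid and NAD kinases, 1 was higher in sh4 and 2 in shAMB, with medians of 0.06 and 0.46. CERK, the ceramide kinase, rose by 0.28 (edgeR adjusted p = 0.00328) and 0.26 (0.00327) and was -0.12 in tumours (0.411). In tumours, where 41.1% of all genes were called and the median of all genes was 0.02, the lists had 4 higher and 1 lower of 15 phospholipase C genes, 7 and 3 of 15 diacylglycerol-binding proteins, 3 and 2 of 8 phosphatases, 3 and 5 of 14 other enzymes, 1 and 5 of 14 resynthesis genes, 2 and 3 of 8 genes of the inositol trisphosphate branch, and none and 1 of 4 related kinases. Their medians in the same order were 0.12, 0.34, 0.20, 0.02, -0.14, 0.04 and -0.35.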

How the data were processed

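Whole-transcriptome libraries of KELLY cells and xenografts were made by the study with a stranded total RNA kit, although the labels give polyA RNA as the molecule. Per the labels and the submitters' processing notes, STAR, SAMtools and RSEM with hg38 were used, and versions and strand settings for these libraries are not given in the sources used here. The authors deposited RSEM expected counts for cell culture and for xenografts, and matching TPM tables. Columns marked Neg were taken as DMSO and those marked Pos as Dox. Groups came from the labels. Expected counts were rounded (91.8% and 91% were already whole). Genes were kept by edgeR's filterByExpr and scaled by TMM, whose factors were 0.974 to 1.07 in culture and 0.936 to 1.09 in xenografts, and tested with edgeR 4.0.16 (R 4.3.3, quasi-likelihood, Benjamini-Hochberg, adjusted p under 0.05), in 1 fit of 18 culture libraries and 1 of 8 xenografts. The median biological coefficient of variation was 0.115 in culture and 0.186 in xenografts, and replicates of a group differed by more than sampling noise (chi-square per degree of freedom 1.8 to 248). Levels are TMM-normalised CPM, divided by deposited length where per kilobase. Alternatives were DESeq2 1.42.0, limma 3.58.1 on log2(TPM + 1), other scaling and filtering, a replicate block, removal of GC and length trends, a fit of the compared groups alone and leaving out each library. Scripts were tested on simulated data. Named genes were the 10 members, RUNX1T1, at most 2 genes of each pathway list past the threshold in the same direction in both hairpin lines and not in EV, ranked by the smaller change, and the 5 genes most correlated with DGKK. All 87 list genes were matched, 6 of them by an older symbol, and promoters come from RefSeq (9 of 10 members have an entry). The members and lists were chosen with earlier results of these data known. Intervals and exact ratios cover counting error only where so stated. The level of 1 marker gene is not reported here.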

Additional observations from a re-analysis of the deposited data

Results flagged for a closer look

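In control tumours DGKG was 0.619 CPM in replicate 4 and 0.235 to 0.251 CPM in the other 3, a gap above Dixon's 95% critical value of 0.829 for 4 samples. It was 1 of 20 groups examined (10 members in 2 tumour groups), and chance alone gives about 5% of groups.

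The effect of Dox differed between lines for several members (edgeR test of the difference, 3 libraries a group). Against EV, DGKA rose more, with a log2 difference of 1.25 for sh4 (adjusted p = 0.0108) and of 1.25 for shAMB (adjusted p = 0.00667), DGKE rose more by 1.20 in shAMB (adjusted p = 2.1e-07), and DGKB was lower by -0.63 in shAMB (adjusted p = 8.9e-05). Between sh4 and shAMB the effects differed by 0.54 for DGKB (adjusted p = 0.000287), -2.19 for DGKG (adjusted p = 0.00843), -0.48 for DGKD (adjusted p = 0.0185), -0.99 for DGKE (adjusted p = 1.0e-06) and 0.21 for DGKI (adjusted p = 0.0499).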

How the results depend on the processing

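Removing GC and length trends moved the number of members called to 1 in EV (DGKB, 0.29), 3 for sh4 minus EV, 2 for shAMB against EV with DMSO and 8 in tumours, from 0, 1, 0 and 5. For sh4 minus EV it was 2 without a filter, 2 with DESeq2 and 3 with limma on log2(TPM + 1), where 20.9%, 33.4% and 41.9% of all genes were called. With limma it was 3 for sh4 minus shAMB and 3 in tumours, from 5 and 5. DESeq2 called 1 member between the DMSO libraries of sh4 and EV, from 0, and 2.79% of all genes, from 1.12%. The share of all genes called moved too: with GC and length trends removed it was 0.342% in EV, 44.6% for sh4 minus EV, 6.09% for shAMB against EV with DMSO and 52.9% in tumours, from 0.0939%, 32.6%, 1.52% and 41.1%, and with limma 61.1% for sh4 minus shAMB and 12.3% in tumours, from 60.9% and 41.1%. Under the GC and length removal the sign turned for DGKB in sh4 (-0.082), DGKE in sh4 (-0.12), DGKD in shAMB (-0.075) and DGKZ in sh4 minus shAMB (0.49), and with limma for DGKZ in shAMB (0.10), DGKI in shAMB (0.017) and DGKA in sh4 minus shAMB (-0.10). Leaving out 1 library gave 2 to 3 members in sh4, 3 to 5 in shAMB, 1 to 3 for sh4 minus EV, 3 to 6 for sh4 minus shAMB and 4 to 5 in tumours, with DGKZ in shAMB at -0.22 to 0.017 and DGKA in sh4 minus shAMB at -0.28 to 0.21. In the same order, the shares of all genes called were 32.7% to 54.2%, 58.9% to 64.1%, 25.3% to 51.0%, 54.1% to 67.3% and 31.1% to 43.8%. The cause was not tested. DGKK stayed lower throughout, from -1.84 to -1.10 in sh4, -1.68 to -1.04 in shAMB and -1.11 to -0.18 in tumours, the smallest being on log2(TPM + 1). Of 44 uncalled values given as ranges or not at all, 22 changed sign and 15 passed under some alternative. These had 632 recomputed values, of which 33 changed sign and 15 passed. No such count was made over all genes, whose share called also moved with the setting. The counts therefore do not show whether the members differ from other genes in this. Length-scaled shares from the deposited TPM moved by more than 1 SD in 4 of 80 cases.

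The correlations of same-numbered libraries between the groups compared were -0.41 to -0.17 in EV, -0.82 to -0.15 in sh4, -0.24 to 0.22 in shAMB and -0.67 to 0.46 in tumours. With 3 or 4 libraries a group, they cannot show whether same-numbered libraries were handled together. With the replicate block the number called was 2 for sh4 minus EV (31.8% of all genes) and 1 between the DMSO libraries of sh4 and EV (0.926%). With that block DGKI in sh4 minus shAMB no longer passed (edgeR adjusted p = 0.0632) and DGKA in sh4 minus shAMB was -0.029.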
